A study of Mus musculus with 27 samples.

Results

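The SPOC line was compared with the GFP line after depletion of the endogenous SPEN protein and induction of Xist, using read counts per gene from 9 of the 27 RNA sequencing libraries of the series, 5 of the SPOC line and 4 of the GFP line. Libraries were chosen by their labels alone. All were made from TX1072, a female line of mouse embryonic stem cells with 1 set of chromosomes from BL/6J and the other from CAST-EiJ mice, in which doxycycline drives Xist from its own locus on the BL/6J (BL6) X chromosome. In every group, controls included, SPEN carries an auxin-inducible degron (SPEN-AID), and cells grew with serum, LIF and the inhibitors of 2i. The GFP line makes BglG-GFP and the SPOC line BglG-GFP-SPOC. In the treatment compared here (Dox+Auxin) cells received auxin for 12 h and then doxycycline at 1 ug/mL together with auxin for 24 h. Libraries of untreated cells and of cells given doxycycline alone for 24 h (Dox), again 4 of the GFP line and 5 of the SPOC line each, serve below to show how the lines differed without SPEN depletion. Each construct was in 1 line by the labels, so SPOC and other differences between the lines cannot be told apart. No group received auxin alone. The design text speaks of 4 biological replicates, while the SPOC line has 5 libraries in each group. Separate cultures are not stated for each library, and p-values measure the spread between these libraries.

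Xist is a long non-coding RNA that spreads over the X chromosome it is made from and silences the genes there. SPEN binds the A-repeat of Xist, and its C-terminal SPOC domain binds co-repressors, among them NCoR with the histone deacetylase HDAC3, and other protein complexes. BglG is a bacterial protein that binds a short RNA stem-loop, by which a fused protein can be brought to an RNA that carries such loops. The comparison sets a line with the SPOC fusion beside a line without it when SPEN itself is removed, within the limits given above. The readouts used are the total count of each gene and the share of its allele-assigned counts that come from the BL6 chromosome, the one that makes Xist.

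Total counts ranged from 30402175 to 38848678 in the 9 libraries (28936459 to 45489094 in all 27), and 34.13% to 35.02% of the counts were also assigned to an allele. The allelic columns were not used under their own names. Each of the 27 BL6 and CAST pairs exceeded the total of the same name in at least 1303 genes, and each stayed at or below exactly 1 other total in all genes, to which it was assigned. Summed over 7 defining markers of embryonic stem cells, the level was 4657 to 4849 CPM (counts scaled to the total of the library) in the GFP libraries and 4862 to 5168 in the SPOC libraries. The markers of primitive endoderm summed to 4.85 to 5.85 CPM in the GFP and 3.09 to 4.69 CPM in the SPOC libraries, those of neural cells to 2.39 to 3.65 and 3.04 to 4.41, those of feeder fibroblasts to 24.9 to 27.8 and 23.4 to 29.5, those of mesoderm to 30.2 to 36.6 and 25.1 to 33.6, and those of trophoblast to 19.6 to 26.4 and 17.2 to 23.0. Their part in the results below was not tested. Single libraries stood apart in 3 ways. The library labelled SPOC untreated replicate 2 held 179 CPM of Xist, against 1.01 to 1.67 CPM in the other 4 of its group, so comparisons with untreated cells are given with and without it. SPOC Dox+Auxin replicates 4 and 5 were low in genes of the hypoxia response, and results are given without both of them. SPOC Dox+Auxin replicates 1 and 2 differed from each other by a chi-square of 1.76 per gene, above the sampling noise but less than the 6.62 to 13.2 of other pairs of that group. They were kept as separate libraries.

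With SPEN depleted, X-linked genes were lower in the SPOC line than in the GFP line, while autosomal genes differed in both directions. edgeR's quasi-likelihood test on the total counts of 17336 genes called 1788 genes lower (10.3%) and 1356 higher (7.82%) in the SPOC line at a Benjamini-Hochberg adjusted p of 0.05. Of 677 X-linked genes tested, leaving out Xist and its antisense partner Tsix, 203 were lower and 27 higher, with a median log2 difference of -0.09. Of 16635 autosomal genes, 1583 were lower and 1329 higher, with a median of 0.01. By chromosome, 30.04% of the X-linked genes, here with Xist and Tsix, were lower, against 5.60% (chromosome 16) to 11.5% (chromosome 15) on the autosomes. The count depends on single libraries. Without GFP replicate 1, 1046 genes were lower and 757 higher, 16 of the latter X-linked. Without GFP replicate 2, 847 genes were higher, 13 of them X-linked. Without SPOC replicates 4 and 5 together, 1084 genes were lower and 813 higher, of which 1009 and 741 were among the calls from all 9 libraries, and the X-linked genes split into 152 lower and 17 higher. Counts of gene lists without these libraries, given below, are to be read beside this general loss of calls. Of the 203 X-linked genes called lower, 141 were called under each of the 18 alternatives tried. The same held for 863 of the 1788 genes called lower and 600 of the 1356 called higher.

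**Figure D1:**
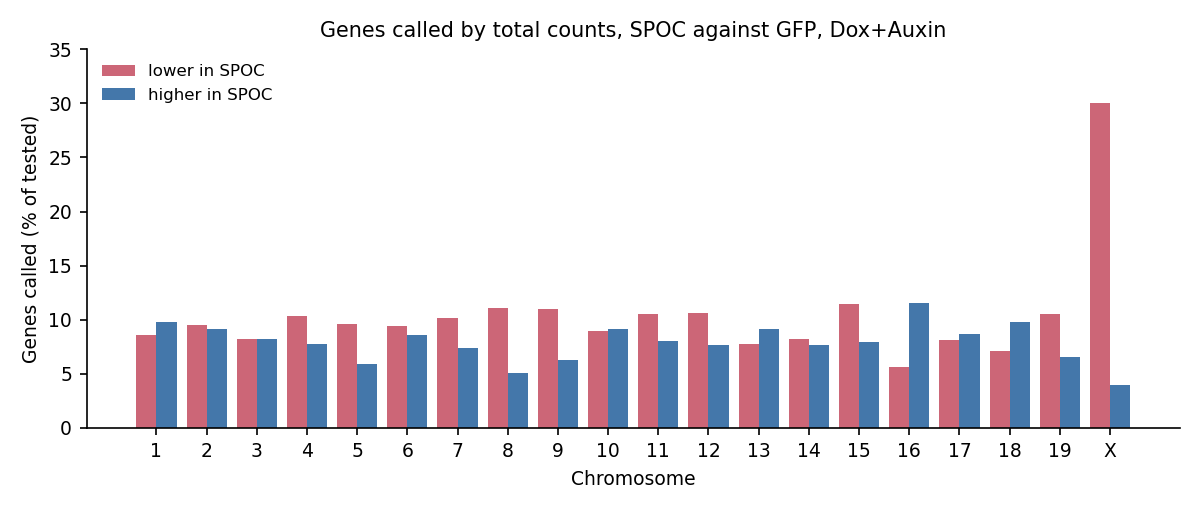
Share of tested genes called lower and higher in the SPOC line than in the GFP line with Dox+Auxin, in percent, for each chromosome (edgeR, adjusted p of 0.05, 5 SPOC against 4 GFP libraries). The X chromosome has 30.04% of its genes lower, while the autosomes range up to 11.5% lower and 11.6% higher (chromosome 16).

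As 1 value per library, X-linked output was taken as the median over 556 X-linked genes of log2 CPM after subtracting the gene's mean over the 9 libraries, minus the same median over 13570 autosomal genes. It was 0.075, 0.048, 0.082 and 0.083 in the GFP libraries 1 to 4 and -0.045, -0.061, -0.046, -0.053 and -0.077 in the SPOC libraries 1 to 5. Every SPOC library lay below every GFP library. The difference was -0.128 on the log2 scale, with an exact two-sided permutation p of 0.0159, the smallest that 5 libraries against 4 can give (0.0278 adjusted over the 7 measures of this kind).

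The deficit lay on the chromosome that makes Xist. The BL6 share, taken as the median over 419 X-linked genes with at least 20 allelic counts in each library, was 47.7, 46.7, 47.9 and 47.4% in the GFP libraries and 40.2, 39.2, 39.1, 39.7 and 38.7% in the SPOC libraries. Both sets lay below an even share, and they did not overlap. The means were 39.4% ± 0.58 (SD, n = 5) in the SPOC line and 47.4% ± 0.54 (SD, n = 4) in the GFP line, a difference of -8.04 points (exact permutation p = 0.0159, 0.0278 adjusted). Over 11417 autosomal genes the median share was 50.3, 50.4, 50.3 and 50.3% in the GFP and 50.3, 50.3, 50.5, 50.4 and 50.2% in the SPOC libraries, which overlapped (exact permutation p = 0.619). Summing the counts over the X-linked genes instead of taking the median gave a difference of -6.72 points.

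Taken separately, the alleles moved differently. The counts of each allele were summed per library over the 389 X-linked genes with at least 20 allelic counts in each of the 27 libraries. BL6 counts of X-linked genes made up 5408, 5271, 5400.5 and 5429 CPM in the GFP libraries and 4130.2, 4059, 4099.9, 4054 and 3916 in the SPOC libraries, with no overlap. The SPOC mean was 24.6% below the GFP mean (exact permutation p = 0.0159, 0.0278 adjusted). CAST counts made up 5882, 5860.3, 5918 and 5929 CPM in the GFP and 5877, 5829.7, 5897, 5818 and 5779 in the SPOC libraries. These sets overlapped, the means differed by -0.972%, and the difference did not pass the threshold (exact permutation p = 0.0635). Gene by gene, the BL6 counts of 198 of the 419 X-linked genes were lower in the SPOC line and those of 4 higher, where 8.25% of all 11844 genes were lower and 5.21% higher. The median log2 difference of the X-linked BL6 counts was -0.30. For the CAST counts 41 X-linked genes were lower and 24 higher, where 6.4% of all genes were lower and 4.75% higher, with a median of 0.02.

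**Figure D2:**
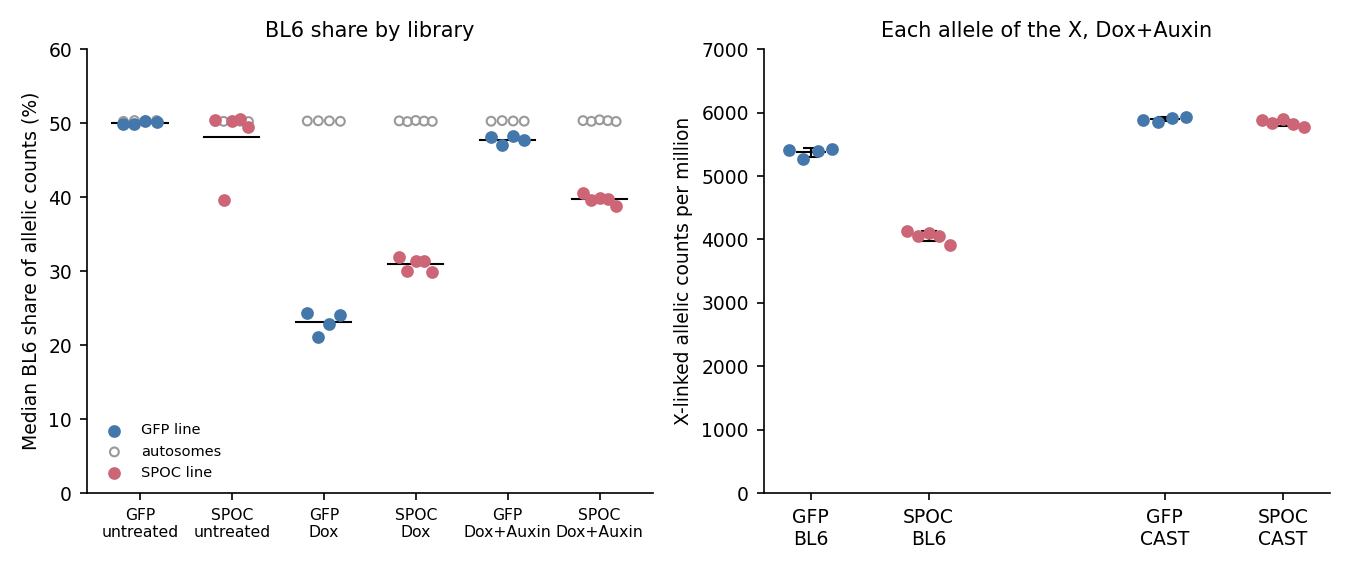
Left, median BL6 share of allelic counts in percent in each of the 27 libraries, for 389 X-linked genes (filled points, line at the group mean) and for autosomes (open circles). Right, BL6 and CAST counts (CPM) summed over the same 389 X-linked genes in the 4 GFP and 5 SPOC Dox+Auxin libraries, with mean and SD. With Dox+Auxin the SPOC libraries lie below the GFP libraries in X-linked BL6 share and in BL6 counts (3916 to 4130.2 against 5271 to 5429), while the CAST counts overlap.

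Xist itself was not higher in the SPOC line. Its level (ENSMUSG00000086503, chromosome X, 103460366 to 103483254 in GRCm38, minus strand) was 386, 642, 454 and 539.8 CPM in the 4 GFP libraries and 339.7, 348, 411, 293 and 306 CPM in the 5 SPOC libraries. The highest SPOC library lay within the range of the GFP libraries. The log2 difference was -0.56 ± 0.16 (SE), adjusted p = 0.0491 in edgeR's test, and the call is not firm: it was lost under 14 of the 18 alternatives, among them leaving out SPOC replicate 1 (adjusted p = 0.0866), 2 (0.0849), 4 (0.0990) or 5 (0.108) or GFP replicate 2 (0.0878), 3 (0.0726) or 4 (0.106). The exact permutation p of the CPM over libraries was 0.0317 (0.0444 adjusted). Between 98.8% and 99.5% of the allelic Xist counts came from BL6 in each of the 9 libraries, with exact 95% binomial bounds from 98.4% to 99.7% that cover counting error only. Tsix, the antisense transcript that runs across Xist, was at 5.05, 7.47, 5.82 and 4.203 CPM in the 4 GFP libraries and 6.23, 5.69, 7.24, 4.95 and 5.72 CPM in the 5 SPOC libraries, and the groups overlapped (0.10 ± 0.15 (SE), adjusted p = 0.685). The sources used here do not give the strand setting of the counting, so reads of Xist and Tsix cannot be told apart where they overlap.

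Spen (ENSMUSG00000040761) was at 789, 879, 646 and 1156 CPM in the 4 GFP libraries and 991, 997, 965, 1257 and 1074 CPM in the 5 SPOC libraries. The ranges overlapped and the difference did not pass the test (0.29 ± 0.17 (SE), adjusted p = 0.298). Since the SPOC construct contains Spen sequence, its reads and those of the endogenous gene cannot be told apart. Both lines were above their untreated cells, which held 158 to 186 CPM in the GFP line and 329 to 353 CPM in the SPOC line. RNA counts do not check the depletion of the protein.

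The X-inactivation centre is the stretch of the X chromosome that holds Xist and the genes that control it. Of 7 tested members of that list 5 were lower in the SPOC line and none higher, with a median of -0.57 against 0.00 over all genes. Xist is 1 of the 5, and the other 4 were called under all alternatives. Ftx (chromosome X, 103560907 to 103623790), a non-coding gene that activates Xist, was at 4.35, 4.802, 5.45 and 3.92 CPM in the 4 GFP libraries and 0.935, 0.686, 0.624, 0.7701 and 0.402 CPM in the 5 SPOC libraries. Each SPOC library held less than any GFP library, and the log2 difference was -2.74 ± 0.18 (SE), adjusted p = 2.85e-06.

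Rlim (chromosome X, 103957163 to 103981284) encodes a ubiquitin ligase that activates Xist by removing its repressor REX1. It was at 409, 428, 375 and 435 CPM in the 4 GFP libraries and 222, 213, 165, 231 and 178 CPM in the 5 SPOC libraries, so all SPOC libraries lay below all GFP libraries (-1.02 ± 0.10 (SE), adjusted p = 0.000244). The BL6 share of its allelic counts was 51.02, 50.2, 50.8 and 53.2% in the GFP libraries and 25.02, 27.1, 20.7, 24.8 and 23.7% in the SPOC libraries. Chic1 (chromosome X, 103356476 to 103396092), on the other side of Xist, was at 40.1, 37.99, 38.2 and 44.5 CPM in the 4 GFP libraries and 25.9, 25.9, 27.5, 29.7 and 25.4 CPM in the 5 SPOC libraries (-0.57 ± 0.06 (SE), adjusted p = 9.55e-05), and its BL6 share was 56.6, 57.7, 57.1 and 56.4% in the GFP libraries and 20.7, 23.3, 18.6, 18.3 and 21.6% in the SPOC libraries. In both genes the SPOC libraries kept a BL6 share of under 30%, while the GFP libraries lay near or above an even share.

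**Figure D3:**
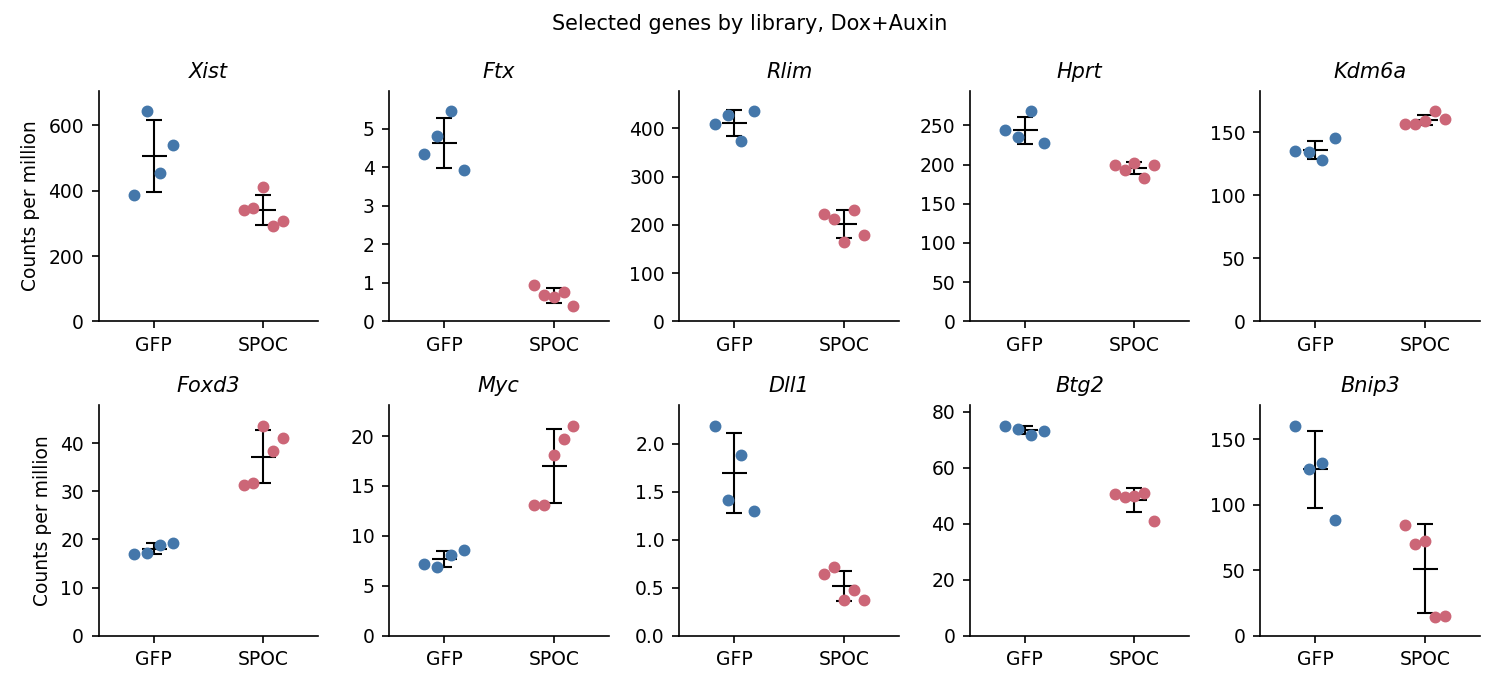
CPM (linear axis from 0) of 10 genes in the 4 GFP and 5 SPOC Dox+Auxin libraries, each point 1 library, with mean and SD. The Ftx and Rlim libraries of the lines do not overlap, the Xist libraries do, and SPOC replicates 4 and 5 hold the lowest 2 Bnip3 values, 14.5 and 15.3 CPM.

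The BL6 to CAST ratio of single genes was tested in 11844 genes with at least 20 allelic counts in each library. The ratio was lower in the SPOC line for 289 genes (2.44%) and higher for 133 (1.12%). Of the 419 X-linked genes 186 were lower and 1 was higher. Autosomal genes split into 102 lower and 132 higher. The count of genes with a higher ratio was 72 without GFP replicate 1, 87 without GFP replicate 2 and 85 without SPOC replicate 5, and it was 79 without SPOC replicates 4 and 5, when it held 0 X-linked genes. The X-linked genes with a lower ratio stayed between 170 and 185 when 1 library was left out.

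The largest shifts on the X chromosome were in genes close to Xist. Uprt (chromosome X, 104482818 to 104507490), a homologue of uracil phosphoribosyltransferase, had a BL6 share of 37.6, 38.7, 51.6 and 41.2% in the GFP libraries and 3.51, 0, 1.49, 5.88 and 2.56% in the SPOC libraries, with at least 39 allelic counts in each library. Its log2 ratio differed by -4.65 ± 0.38 (SE), adjusted p = 4.93e-21. Nexmif (chromosome X, 104077434 to 104201185), a neuronal gene linked to X-linked intellectual disability, had a BL6 share of 55.7, 54.005, 56.8 and 56.6% in the GFP libraries and 14.4, 14.8, 10.1, 14 and 8.87% in the SPOC libraries (-3.13 ± 0.09 (SE), adjusted p = 3.84e-58). Its total level was 161, 162, 152 and 193 CPM in the 4 GFP libraries and 91.4, 91.6, 82.004, 108 and 81.5 CPM in the 5 SPOC libraries, and these too did not overlap (-0.87 ± 0.09 (SE), adjusted p = 0.000237). The palmitoyltransferase gene Zdhhc15 (-2.98 ± 0.20 (SE), adjusted p = 6.66e-28), Nhsl2 (-2.78 ± 0.17 (SE), adjusted p = 1.13e-30) and the transcriptional co-regulator gene Cited1 (-2.57 ± 0.23 (SE), adjusted p = 1.75e-18) followed. All 5 lie within 2 Mb of Xist. The BL6 shares of the last 3 were 46.4%, 43.97% and 62.5% on average in the GFP line and 9.98%, 10.2% and 22.2% in the SPOC line. Hmgn5, a nucleosome-binding protein, was the X-linked gene with a higher ratio, at 20.8, 20.3, 24.3 and 25.2% in the GFP libraries and 28.5, 29.1, 27.99, 27.9 and 31.4% in the SPOC libraries (0.47 ± 0.13 (SE), adjusted p = 0.0153). That call was lost without SPOC replicate 5 (adjusted p = 0.0550), GFP replicate 1 (0.118) or GFP replicate 2 (0.0906).

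Over the 389 X-linked genes with enough allelic counts in all 27 libraries, the mean BL6 share was lower in the SPOC line for 339. The median difference was -5.31 points (quartiles -9.74 and -1.57). In 182 genes all SPOC libraries lay below all GFP libraries, and in 1 gene they lay above. The like share over all genes is not given here, so these counts are a description. By the allelic test 185 of the 389 had a lower ratio and 1 a higher one. Over all 11844 genes these shares were 2.44% and 1.12%. Median shares were 50.2% and 50.3% in untreated GFP and SPOC cells (without untreated SPOC replicate 2), 23.5% and 30.6% with Dox, and 47.9% and 40.4% with Dox+Auxin. With untreated SPOC replicate 2, itself at 39.7%, the mean of the library medians of untreated SPOC cells was 48.1%, against 50.2% without it. With SPEN present, the GFP line had the lower BL6 share under doxycycline. With SPEN depleted, the order of the lines was the opposite. Xist differed between the lines with Dox, at 740 to 907 CPM in the GFP and 305 to 452 CPM in the SPOC libraries. Its part in the order of the lines was not tested.

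Genes were also split into 4 groups of about equal size by the change of their BL6 share with Dox in the GFP line. That grouping used no library of the SPOC line and no Dox+Auxin library. In the group with the largest loss (-56.5 to -32.3 points, 98 genes) the median difference between the SPOC and GFP lines was -11.7 points with Dox+Auxin, and 78 genes passed the allelic test. The other groups, of 97 genes each, had, in order of the loss, medians of -6.31 (52 called), -3.84 (41 called) and -0.763 points (14 called). Across the 389 genes, which share their libraries and are not independent replicates, the change with Dox in the GFP line and the difference between the lines with Dox+Auxin had a Pearson r of 0.581 and a Spearman rho of 0.655. The total counts showed a like split. Of 516 X-linked genes that fell with Dox in the GFP line, 199 were lower in the SPOC line with Dox+Auxin and 15 higher. Of the other 161, which did not pass that test as a fall, 4 were lower and 12 higher. The sets already differed in untreated cells, with median line differences of -0.03 in the 516 genes and 0.14 in the 161. The median change of the line difference from untreated cells was -0.15 and -0.07. The interaction test called 58 of the 516 lower and 1 higher, and 0 of the 161.

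**Figure D4:**
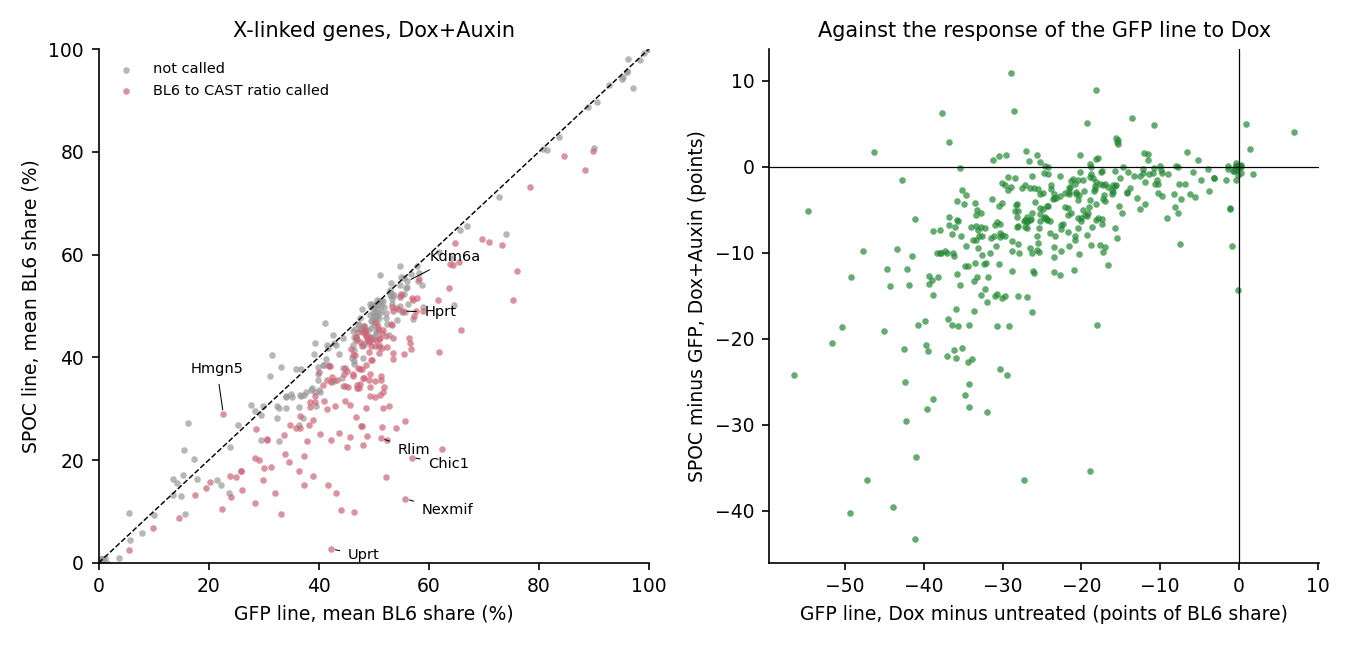
Left, mean BL6 share (%) of 389 X-linked genes with Dox+Auxin in the GFP line (horizontal axis) and the SPOC line (vertical axis), coloured where the BL6 to CAST ratio was called, with a dashed line of equal shares. Right, the line difference in points against the change with Dox in the GFP line. Of the genes, 339 lie below equal shares, and the median line difference is -11.7 points in the group with the largest loss with Dox and -0.763 in the group with the smallest.

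The shift also varied along the chromosome. Within 5 Mb of Xist, 46 genes had a median difference of -12.4 points, and 37 of them passed the allelic test. Between 5 and 40 Mb on the side of higher coordinates the median was -9.00 points (30 of 48 called), and from 40 to 70 Mb it was -5.91 (41 of 73). On the other side it was -7.88 at 5 to 20 Mb (14 of 20), -3.60 at 20 to 40 Mb (27 of 70), -7.02 at 40 to 60 Mb (29 of 50) and -1.81 at 60 to 110 Mb (7 of 82). The decline was not even, since genes 40 to 60 Mb away on that side differed more than those 20 to 40 Mb away. Median differences were -3.05 points for 62 genes under 10 CPM, -5.83 for 131 genes from 10 to 50 CPM and -5.37 for 196 genes above. Low counts limit the precision in the first class. These differences between bins are descriptions and were not tested.

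**Figure D5:**
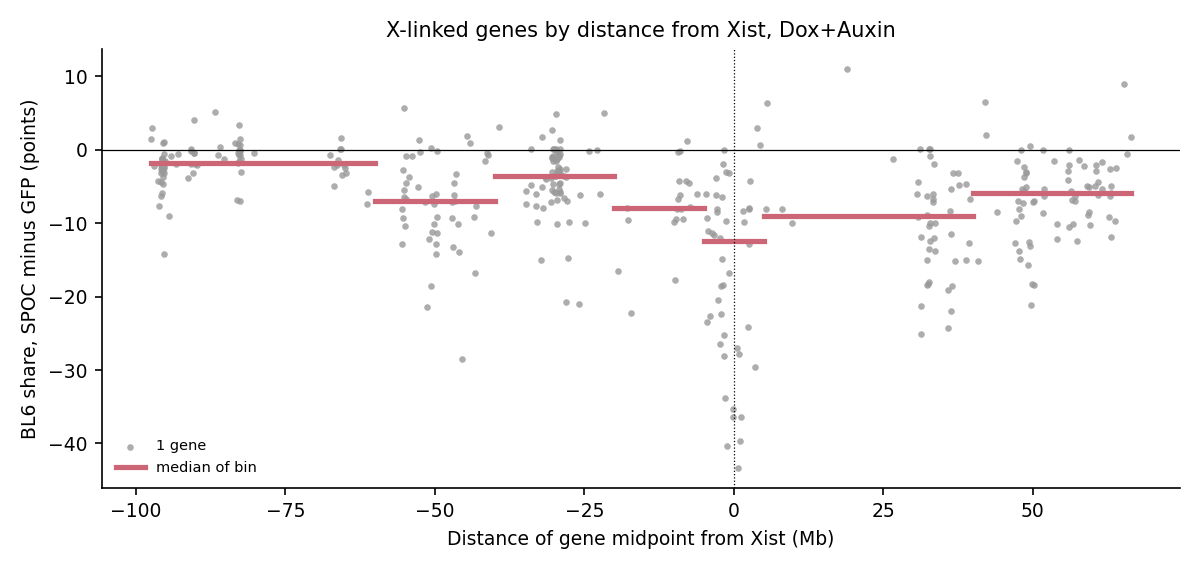
Difference in BL6 share between the SPOC and GFP lines with Dox+Auxin (points of percent) for 389 X-linked genes against their distance from Xist in Mb, with the median of each distance bin as a line. The bin within 5 Mb of Xist has the lowest median, -12.4 points, and the bin farthest on the side of lower coordinates the highest, -1.81.

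The 2 readouts of a gene, total counts and BL6 share, were set side by side. The BL6 counts are part of the total counts of the same libraries, so some agreement between the readouts is built in. Of 149 X-linked genes that were lower in total counts and had allelic counts, 142 had a lower BL6 share in the SPOC line, with a median of -9.43 points. Of 12 that were higher in total counts 9 had a lower BL6 share. These counts are to be read beside 339 of all 389 X-linked genes with a lower share, at a median of -5.31 points. Across the 389 genes the share difference and the total log2 difference had a Pearson r of 0.609 and a Spearman rho of 0.560.

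Most X-linked regulators of the stem cell state were lower in the SPOC line. Of 18 tested members 13 were lower and none higher (median -0.23), where 10.3% of all genes and 203 of all 677 X-linked genes were lower. Of the 13 calls 9 held under every alternative. The count was 9 without SPOC replicates 4 and 5. Atrx, a chromatin remodeller, was at 757, 836, 733 and 922 CPM in the 4 GFP libraries and 587, 607, 612, 641 and 579 CPM in the 5 SPOC libraries (-0.41 ± 0.06 (SE), adjusted p = 0.00119), and its BL6 share was 48.6, 48.2, 48.6 and 50.03% in the GFP libraries and 25.7, 24.9, 25.1, 25.2 and 22.4% in the SPOC libraries. Ogt, the enzyme that attaches O-GlcNAc to proteins, was at 412, 445, 403 and 371 CPM in the 4 GFP libraries and 354, 339, 337, 294 and 293 CPM in the 5 SPOC libraries (-0.32 ± 0.06 (SE), adjusted p = 0.00367), with a BL6 share of 50.2, 51.4, 52.1 and 50.7% in the GFP libraries and 34.4, 32.99, 32.4, 32.9 and 30.7% in the SPOC libraries. Neither gene had overlapping groups in either readout. The MAP kinase phosphatase gene Dusp9 differed by -0.32 on the log2 scale and the neural and stem cell transcription factor gene Sox3 by -0.39. Klhl13, a ubiquitin ligase adaptor that affects differentiation, ranged from 808 to 1046 CPM in the GFP and 437 to 975 CPM in the SPOC libraries and did not pass (-0.26 ± 0.22 (SE), adjusted p = 0.463). Nr0b1 (DAX1), a repressor in the pluripotency network, had a total log2 difference of 0.19 ± 0.06 (SE), adjusted p = 0.0537, while its allelic ratio was lower (-1.76 ± 0.06 (SE), adjusted p = 7.24e-16). In this gene the BL6 share was lower while the total was not.

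Of 30 X-linked housekeeping genes 7 were lower and none higher (median -0.08), where 203 of all 677 X-linked genes were lower, and 4 of the 7 calls held under every alternative. The count was 5 without SPOC replicates 4 and 5. Prps1, which makes the precursor of purine and pyrimidine nucleotides, was at 505, 499.8, 513 and 492 CPM in the 4 GFP libraries and 388, 373, 347, 361 and 389.8 CPM in the 5 SPOC libraries (-0.42 ± 0.04 (SE), adjusted p = 1.52e-05). Its BL6 share was 41.3, 39.5, 39.6 and 40.6% in the GFP libraries and 26.1, 24.9, 24.9, 24.8 and 24.6% in the SPOC libraries. The groups separated in both measures. Pdha1, a subunit of pyruvate dehydrogenase, differed by -0.36 ± 0.04 (SE), adjusted p = 7.12e-05, and the purine salvage gene Hprt by -0.31 ± 0.05 (SE), adjusted p = 0.000581. The difference of Magt1, a magnesium transporter and glycosylation factor, was -0.28 ± 0.04 (SE), adjusted p = 0.000304. The glycolysis gene Pgk1 was at 736, 641, 673 and 549 CPM in the 4 GFP libraries and 503, 467, 508, 295 and 342 CPM in the 5 SPOC libraries. The groups did not overlap, but the difference did not pass (-0.61 ± 0.18 (SE), adjusted p = 0.0592), and SPOC replicates 4 and 5 held the lowest values. Slc25a5, the mitochondrial ADP/ATP carrier, had a log2 difference of -0.06 ± 0.03 (SE), adjusted p = 0.198. The mean BL6 share was lower in the SPOC line for 21 of 26 members, with a median difference of -2.96 points, and 13 passed the allelic test, where 186 of all 419 X-linked genes did so as lower.

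Genes known to escape X inactivation were the next list. Of 17 members 1 was higher and 1 lower (median -0.02), where 27 of all 677 X-linked genes were higher and 203 lower, and both calls held under all alternatives. Kdm6a, a histone H3K27 demethylase, was at 135, 134, 128 and 145 CPM in the 4 GFP libraries and 157, 157, 159, 166 and 161 CPM in the 5 SPOC libraries and was higher in each SPOC library than in any GFP library (0.25 ± 0.04 (SE), adjusted p = 0.002005), as it was in untreated cells (0.13, adjusted p = 0.0126), and the change did not pass the interaction test (adjusted p = 0.233). Pbdc1 was the lower one (-0.15 ± 0.04 (SE), adjusted p = 0.0116). The RNA helicase gene Ddx3x (0.07 ± 0.04 (SE), adjusted p = 0.1796) and the deubiquitinase gene Usp9x (0.19 ± 0.11 (SE), adjusted p = 0.287) did not pass. The mean BL6 share was lower in the SPOC line for 14 of 15 members, with a median difference of -2.19 points, and 6 passed the allelic test, where 186 of all 419 X-linked genes did so as lower. Among the 6 was Ddx3x, whose ratio differed by -0.11 ± 0.03 (SE), adjusted p = 0.0047997.

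The X-linked genes with the largest falls by the naming rule (called, averaging 1 CPM or more, and with the 2 groups fully separate) were Ftx, Magea4, Magee2, Ripply1, Gjb1, Apln, Cited1, Ube2dnl1, Rlim and Armcx3. Over all genes averaging as much, 20.7% had fully separate groups. Ripply1, a co-repressor that acts in somite formation, was at 22.1, 18.9, 20.7 and 16.2 CPM in the 4 GFP libraries and 8.302, 7.46, 6.41, 6.16 and 6.16 CPM in the 5 SPOC libraries (-1.49 ± 0.10 (SE), adjusted p = 3.83e-06), and its BL6 share was 41.5, 38.1, 41.2 and 35% in the GFP libraries and 19.2, 10.7, 18, 15.3 and 21.6% in the SPOC libraries. Apln, the ligand of the apelin receptor, was at 23.9, 23.3, 22.8 and 19.04 CPM in the 4 GFP libraries and 12.7, 11.8, 10.7, 7.32 and 7.49 CPM in the 5 SPOC libraries (-1.14 ± 0.15 (SE), adjusted p = 0.000885). That their groups did not overlap was set by the rule. Magea4 (-1.87), Magee2 (-1.67), the gap junction gene Gjb1 (-1.34), Cited1 (-1.10), Ube2dnl1 (-1.03) and Armcx3 (-1.004) had means from 1.76 to 12.3 CPM in the GFP line and 0.5802 to 5.72 CPM in the SPOC line. Magea4 belongs to a family of near-identical copies, so its counts are uncertain. In the fit of all 27 libraries, Apln was already lower in untreated SPOC cells (-0.48, adjusted p = 0.0198). The line difference was lower than in untreated cells for Ripply1 (interaction adjusted p = 0.000257), Magea4 (0.0416) and Gjb1 (0.0237). This interaction did not pass for Apln (0.0652), Cited1 (0.265), Magee2 (0.0712), Ube2dnl1 (0.0702) and Armcx3 (0.0773).

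Fewer X-linked genes were higher in the SPOC line. Of the 27, 10 were called under all alternatives, Kdm6a among them. The naming rule picked the 5 largest rises whose groups did not overlap. Wdr45, an autophagy protein, was at 43.9, 43.6, 46.9 and 46.5 CPM in the 4 GFP libraries and 63.8, 59.5, 50.4, 66.7 and 62.3 CPM in the 5 SPOC libraries (0.43 ± 0.07 (SE), adjusted p = 0.000968). It was already higher in untreated SPOC cells (0.31, adjusted p = 0.00412). The cell adhesion gene L1cam (0.75 ± 0.18 (SE), adjusted p = 0.0102) and the signalling scaffold gene Cnksr2 (0.55 ± 0.10 (SE), adjusted p = 0.00302) also held throughout. Of the rises named here, Cnksr2 (0.34, adjusted p = 0.0221), Zfp711 (0.68, adjusted p = 0.00623) and Rhox2a (0.53, adjusted p = 0.0259) were higher in untreated SPOC cells too, also without untreated SPOC replicate 2. L1cam did not pass there (0.16, adjusted p = 0.649). The change of the line difference from untreated cells passed the interaction test in none of the 5 (adjusted p from 0.241 for L1cam to 0.919 for Rhox2a). Zfp711 (0.54 ± 0.14 (SE), adjusted p = 0.0142) lost its call without GFP replicate 2 (adjusted p = 0.0510). Rhox2a (0.46 ± 0.14 (SE), adjusted p = 0.0347), 1 of several near-identical Rhox2 copies, lost it without SPOC replicate 2 (0.0836) or 4 (0.0596) or without any 1 of the GFP replicates (0.0580 to 0.0819).

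To see whether the lines already differed, the same contrast was taken in untreated cells, in a fit of all 27 libraries. There 1063 genes were higher (5.79%) and 1059 lower (5.77%) in the SPOC line, with 36 higher and 32 lower of 731 X-linked genes. Without the untreated SPOC replicate 2 the X-linked genes split into 56 higher and 14 lower. Of the genes higher with Dox+Auxin 372 were also higher untreated (27.4% of the former, 34.995% of the latter). Of those lower, 465 were also lower untreated (26.01% and 43.9%). With Dox alone, SPEN being present, 984 genes were higher (5.36%) and 978 lower (5.33%) in the SPOC line. The X-linked genes then went the other way, with 236 higher, 6 lower and a median of 0.22. Xist was lower in these SPOC libraries (305 to 452 CPM) than in the GFP libraries with Dox (740 to 907 CPM).

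The change of the line difference was tested as an interaction. Against untreated cells, the line difference with Dox+Auxin was lower for 221 genes (1.2%) and higher for 220 (1.2%). Of the X-linked genes 58 were lower and 1 higher. Without the untreated SPOC replicate 2, whose Xist level stood apart, 354 genes were lower, 143 of them X-linked. The X-linked count was 33 without untreated SPOC replicate 4, 38 without untreated SPOC replicate 5, 36 without untreated GFP replicate 4, 37 without GFP Dox+Auxin replicate 1 and 36 without GFP Dox+Auxin replicate 3. Over all genes, leaving out 1 library gave 98 (GFP untreated replicate 4) to 512 (GFP Dox+Auxin replicate 4) higher and 109 (GFP untreated replicate 4) to 354 lower. Higher counts were also moved by leaving out untreated SPOC replicate 4 (123), untreated GFP replicates 1 (140) and 3 (139), SPOC Dox+Auxin replicate 3 (136) and GFP Dox+Auxin replicates 1 (111), 2 (117) and 3 (108). Lower counts were moved by untreated SPOC replicate 4 (130), untreated GFP replicates 2 (146) and 3 (139) and GFP Dox+Auxin replicates 1 (121), 2 (146), 3 (128) and 4 (353). Against Dox, the line difference with Dox+Auxin was lower for 854 genes (4.65%) and higher for 641 (3.49%), with 287 X-linked genes lower and 3 higher. The count of higher genes was 423 without GFP Dox replicate 4. These contrasts share the Dox+Auxin libraries.

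Ftx changed its line difference against untreated cells by -2.78 (edgeR interaction, adjusted p = 1.94e-06) and Rlim by -1.04 (adjusted p = 0.00227). Untreated, the lines differed by 0.04 and 0.02 in these genes. Prps1 (-0.44, adjusted p = 0.000395), Pdha1 (-0.27, 0.00898) and Tbl1x (-0.38, 0.01098) also passed. Atrx (-0.18, 0.411) and Chic1 (-0.30, 0.168) did not. Both were already lower in untreated SPOC cells, with log2 differences of -0.24 (adjusted p = 0.0441) and -0.28 (0.0241). Without untreated SPOC replicate 2 both interactions passed, at -0.26 (adjusted p = 0.0456) for Atrx and -0.39 (0.00296) for Chic1. The untreated difference was then -0.16 for Atrx, which no longer passed (adjusted p = 0.0569), and -0.18 (0.0318) for Chic1. Ftx, Rlim, Prps1, Pdha1 and Tbl1x passed without that library too, with adjusted p-values of at most 0.000901.

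The next list holds protein partners of Xist silencing. Of 28 silencing factors 5 were higher and 1 lower (median 0.08), where 7.82% of all genes were higher and 10.3% lower, and 3 of the 6 calls held under all alternatives. In untreated SPOC cells 8 of the 28 were higher and none lower, where 5.79% of all genes were higher. The interaction test against untreated cells called 1 higher and 1 lower. The Polycomb subunit gene Suz12 was at 509, 537, 504 and 541 CPM in the 4 GFP libraries and 618, 622, 638, 623 and 613 CPM in the 5 SPOC libraries (0.26 ± 0.03 (SE), adjusted p = 0.000278), without overlap, and was higher in untreated SPOC cells too (0.16, adjusted p = 0.000491). Ythdc1, a reader of N6-methyladenosine, differed by 0.17 ± 0.04 (SE), adjusted p = 0.00539. Wtap, of the methyltransferase complex (0.12 ± 0.04 (SE), adjusted p = 0.0451), and the RNA-binding protein gene Hnrnpu (0.11 ± 0.03 (SE), adjusted p = 0.02997) were called with all 9 libraries and lost the call in several alternatives. Leaving out any 1 of SPOC replicates 3, 4 or 5 or of the GFP replicates raised the adjusted p of Wtap to between 0.0692 and 0.106, and leaving out SPOC replicate 1, 4 or 5 or GFP replicate 1, 2 or 3 raised that of Hnrnpu to between 0.0578 and 0.107. Ciz1, which anchors Xist in the nucleus, was lower (-0.38 ± 0.10 (SE), adjusted p = 0.0129), but not without GFP replicate 2 (adjusted p = 0.0513).

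The co-repressors bound by SPOC showed 2 of 9 members lower and none higher (median -0.11), where 10.3% of all genes were lower. Both are X-linked, and 203 of all 677 X-linked genes were lower. Tbl1x, a core subunit of the NCoR complex, was at 362, 362, 318 and 369 CPM in the 4 GFP libraries and 251, 253, 231, 255 and 231 CPM in the 5 SPOC libraries (-0.52 ± 0.05 (SE), adjusted p = 3.23e-05), and its BL6 share was 49.1, 47.6, 47.3 and 47.2% in the GFP libraries and 28.01, 25.9, 25.4, 27.3 and 26.99% in the SPOC libraries. The groups did not overlap in either readout. Zbtb33 (Kaiso), which recruits NCoR to methylated DNA, was lower (-0.21 ± 0.06 (SE), adjusted p = 0.0222), a call lost without GFP replicate 1 (adjusted p = 0.0519) or 4 (0.0633). Hdac3 (-0.11 ± 0.04 (SE), adjusted p = 0.0837) and Ncor1 (0.18 ± 0.07 (SE), adjusted p = 0.101) did not pass. Of 14 genes of the NuRD complex 2 were higher and 2 lower (where 7.82% of all genes were higher and 10.3% lower), with 3 of the 4 calls held throughout. The deacetylase gene Hdac2 was higher (0.17), and Mta1 (-0.30) and the X-linked histone-binding gene Rbbp7 (-0.26) were lower.

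Outside the X chromosome, the largest rises by the naming rule included few strongly expressed genes. Myc, the growth regulator, was at 7.21, 6.87, 8.11 and 8.55 CPM in the 4 GFP libraries and 13.1, 13.1, 18.1, 19.7 and 21.03 CPM in the 5 SPOC libraries (1.15 ± 0.16 (SE), adjusted p = 0.000723). Id1, an inhibitor of differentiation induced by BMP signals, was at 4.58, 5.72, 6.36 and 6.996 CPM in the 4 GFP libraries and 8.54, 10.3, 14.02, 16.5 and 17.5 CPM in the 5 SPOC libraries (1.19 ± 0.23 (SE), adjusted p = 0.00696). Dio3, the thyroid hormone deiodinase of an imprinted cluster, was at 1.98, 2.17, 2.37 and 2.14 CPM in the 4 GFP libraries and 5.29, 5.49, 4.09, 7.405 and 9.93 CPM in the 5 SPOC libraries (1.58 ± 0.24 (SE), adjusted p = 0.00137). The rule itself required that the groups not overlap. Myc (0.57, adjusted p = 0.00896) and Dio3 (0.71, adjusted p = 0.0206) were already higher in untreated SPOC cells, and the change of their line differences from untreated cells did not pass the interaction test (adjusted p = 0.124 and 0.124). The others were Nfe2, Ehf, Crygd, Allc, Abcc12, Syndig1, Scn3a, Ceacam10, Crygc, Pramel6, Cemip and Robo4, with log2 differences from 1.06 to 1.40 and SPOC means from 1.42 to 16.6 CPM. Ehf (0.63, adjusted p = 0.00383), Crygd (0.97, adjusted p = 0.00432), Crygc (0.80, adjusted p = 0.00174) and Robo4 (0.78, adjusted p = 0.00608) were higher in untreated SPOC cells as well. The line difference was larger than in untreated cells for Nfe2 (interaction adjusted p = 0.0402), Allc (0.0277) and Syndig1 (0.00432). These untreated differences and interactions also passed without untreated SPOC replicate 2. Crygc, Crygd and Pramel6 belong to families with near copies and are uncertain. Pramel6 lost its call without SPOC replicate 4 or 5 or any 1 of the GFP replicates (adjusted p 0.0674 to 0.107).

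The largest autosomal falls by the naming rule were in 10 genes. Adm, the vessel peptide adrenomedullin, was at 4.17, 3.36, 3.03 and 1.81 CPM in the 4 GFP libraries and 1.11, 0.658, 0.8799, 0.178 and 0.247 CPM in the 5 SPOC libraries (-2.30 ± 0.40 (SE), adjusted p = 0.00324). Cxcl12, a chemokine, was at 3.91, 4.41, 2.74 and 2.48 CPM in the 4 GFP libraries and 1.58, 0.972, 0.823, 0.7701 and 0.402 CPM in the 5 SPOC libraries (-1.87 ± 0.28 (SE), adjusted p = 0.00106). Dll1, a Notch ligand, was at 2.19, 1.41, 1.88 and 1.298 CPM in the 4 GFP libraries and 0.643, 0.715, 0.369, 0.474 and 0.371 CPM in the 5 SPOC libraries (-1.71 ± 0.23 (SE), adjusted p = 0.0003402). All 3 were at low levels, and their separation was required by the rule. Rasd1 (-1.82), Ppp1r3c (-1.63), elastin (Eln, -1.43), Ier3 (-1.37), Cdc42ep2 (-1.29) and Tmem211 (-1.28) were others. In the fit of all 27 libraries, none of the genes named here passed in untreated cells. The line difference was lower than in untreated cells for Cxcl12 (interaction adjusted p = 0.000902) and Eln (0.0367). This interaction did not pass for Adm (0.114), Rasd1 (0.132), Dll1 (0.0564), Ppp1r3c (0.0506), Ier3 (0.296), Cdc42ep2 (0.214) and Tmem211 (0.0755). Tmem211 lost its call without GFP replicate 1 (adjusted p = 0.0523), and Ier3 without SPOC replicate 2, 4 or 5 or GFP replicate 1, 2 or 3 (0.0576 to 0.107). Of all 40 rises and falls named by the rule, X-linked ones included, 34 were called under every alternative, where the same held for 46.5% of all 3144 calls. The rule chose them for size and full separation in these same libraries, so a higher share was built in.

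A number of naive pluripotency genes were higher in the SPOC line. Of 20 members 10 were higher and none lower (median 0.13), where 7.82% of all genes were higher, and 5 of the 10 held under all alternatives. Without SPOC replicates 4 and 5, 6 were higher and 1 lower, while the higher calls over all genes fell from 1356 to 813. In untreated SPOC cells 2 of the 20 were higher and none lower, where 5.79% of all genes were higher. The interaction test against untreated cells called 1 higher and none lower. Nr5a2, a nuclear receptor that activates Pou5f1, was at 120.3, 121, 118 and 132 CPM in the 4 GFP libraries and 143, 148, 152, 160.1 and 155 CPM in the 5 SPOC libraries (0.32 ± 0.05 (SE), adjusted p = 0.0006496). Fgf4, the growth factor that primes exit from the naive state, was at 246, 253, 244 and 246 CPM in the 4 GFP libraries and 292, 289, 324, 282 and 309 CPM in the 5 SPOC libraries (0.29 ± 0.04 (SE), adjusted p = 0.000637). Neither overlapped. Zfp42 (REX1) differed by 0.25 ± 0.05 (SE), adjusted p = 0.00296. Pou5f1 (OCT4) differed by 0.12 ± 0.04 (SE), adjusted p = 0.0349 and lost the call without SPOC replicate 3, 4 or 5 or GFP replicate 1, 2 or 4 (adjusted p 0.0541 to 0.110). Tet2, a methylcytosine oxidase, was 0.37 higher and lost it without SPOC replicate 4 or 5 or GFP replicate 1 or 3 (0.0530 to 0.0721).

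Of 16 formative and primed genes 3 were higher and 1 lower, where 7.82% of all genes were higher and 10.3% lower, and 3 of the 4 calls held throughout. Foxd3, a transcription factor of the exit from naive pluripotency, was at 16.9, 17.3, 18.8 and 19.4 CPM in the 4 GFP libraries and 31.2, 31.8, 43.6, 38.3 and 41.02 CPM in the 5 SPOC libraries (1.05 ± 0.10 (SE), adjusted p = 8.66e-05). The groups did not overlap. Its line difference was larger than in untreated cells (interaction 0.94, adjusted p = 7.18e-05). Dnmt3l, a cofactor of de novo DNA methylation, was lower (-0.62 ± 0.16 (SE), adjusted p = 0.0278), a call lost without SPOC replicate 2, 3 or 4 or GFP replicate 1, 2 or 3 (0.0533 to 0.0734).

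Of 14 genes of Activin, Nodal and BMP signalling 7 were higher and 1 lower, where 7.82% of all genes were higher and 10.3% lower, with 5 of the 8 calls held throughout. With SPOC replicates 4 and 5 left out, 5 were higher and 1 lower. In untreated SPOC cells 4 of the 14 were higher and 1 lower, where 5.79% and 5.77% of all genes were. The interaction test against untreated cells called 2 higher and none lower. The BMP target Id3 was at 4.74, 5.098, 6.42 and 5.67 CPM in the 4 GFP libraries and 8.71, 9.61, 10.8, 13.2 and 13.8 CPM in the 5 SPOC libraries (1.04 ± 0.14 (SE), adjusted p = 0.000515). The Activin antagonist follistatin (Fst) differed by 0.96 ± 0.19 (SE), adjusted p = 0.00349, the Activin subunit Inhbb by 0.55 ± 0.13 (SE), adjusted p = 0.00983 and the Nodal antagonist Lefty2 by 0.37 ± 0.05 (SE), adjusted p = 0.000483. Untreated, Id3 was higher in the SPOC line too (0.42, adjusted p = 0.0178) and Inhbb lower (-0.43, adjusted p = 0.005199), and both changed by the interaction test (adjusted p = 0.0461 and 0.000902). Lefty2 was higher to a like degree in untreated SPOC cells (0.36). Id2 was the lower one (-0.54 ± 0.14 (SE), adjusted p = 0.0201), and its call was lost without SPOC replicate 5 (adjusted p = 0.0514) or GFP replicate 3 (0.0578).

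Of 15 Notch pathway genes and targets 5 were lower and 1 higher (median -0.23), where 7.82% of all genes were higher and 10.3% lower. Besides Dll1, the feedback inhibitor Nrarp was lower (-0.47 ± 0.07 (SE), adjusted p = 0.0005796), as was the receptor Notch3 (-0.41 ± 0.09 (SE), adjusted p = 0.00678). The ligand Jag2 was lower (-0.40 ± 0.11 (SE), adjusted p = 0.0307), a call lost without SPOC replicate 3 or 4 or GFP replicate 1, 2 or 3 (adjusted p 0.0615 to 0.0863). Hes1, a Notch target and repressor, was higher, at 39.3, 38.5, 43.4 and 38.7 CPM in the 4 GFP libraries and 42.6, 45.4, 50.5, 47.9 and 52.2 CPM in the 5 SPOC libraries (0.27 ± 0.06 (SE), adjusted p = 0.00892), with 1 GFP library inside the SPOC range. Of these 6 calls 4 held throughout, and 4 were lower and 1 higher without SPOC replicates 4 and 5.

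The next list holds targets of p53, the tumour suppressor that responds to DNA damage and stress. Of 21 members 10 were lower and none higher (median -0.17), where 10.3% of all genes were lower, 9 of them under all alternatives, and 9 were lower without SPOC replicates 4 and 5. In untreated SPOC cells 3 of the 21 were lower and 1 higher, where 5.77% and 5.79% of all genes were. Btg2, an inhibitor of proliferation, was at 75.1, 73.8, 71.6 and 73.3 CPM in the 4 GFP libraries and 50.8, 49.5, 50.04, 50.9 and 41.02 CPM in the 5 SPOC libraries (-0.59 ± 0.06 (SE), adjusted p = 3.32e-05). Phlda3, an inhibitor of AKT, was at 212, 207, 225 and 199 CPM in the 4 GFP libraries and 170.2, 164, 164, 165 and 153 CPM in the 5 SPOC libraries (-0.36 ± 0.04 (SE), adjusted p = 8.66e-05). Both separated the lines. The cell cycle inhibitor gene Cdkn1a (p21) was lower (-0.21 ± 0.04 (SE), adjusted p = 0.00182), as was the apoptosis gene Bbc3, which encodes PUMA (-0.41 ± 0.05 (SE), adjusted p = 0.0003204). Eda2r, a death receptor of the list, is X-linked (-0.42 ± 0.07 (SE), adjusted p = 0.00145). The line difference was lower than in untreated cells for Phlda3, Eda2r and Btg2 (edgeR interaction), and without untreated SPOC replicate 2 for Aen too (-0.17, adjusted p = 0.0444).

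Cholesterol synthesis genes were lower in 9 of 22 cases and higher in none (median -0.16), where 10.3% of all genes were lower. Of these, 4 held throughout, and 5 were lower without SPOC replicates 4 and 5. In untreated SPOC cells 3 of the 22 were lower, where 5.77% of all genes were lower. None of the 22 passed the interaction test against untreated cells. Lss, lanosterol synthase, was at 98.7, 99.01, 87.7 and 84.2 CPM in the 4 GFP libraries and 75.9, 79.9, 67.3, 58.3 and 72.5 CPM in the 5 SPOC libraries (-0.37 ± 0.08 (SE), adjusted p = 0.00892). The X-linked sterol isomerase gene Ebp differed by -0.36 ± 0.04 (SE), adjusted p = 0.000184. Dhcr7, the last enzyme of the pathway, was lower (-0.32 ± 0.08 (SE), adjusted p = 0.0201) but not without SPOC replicate 5 (adjusted p = 0.0536), GFP replicate 1 (0.0650) or GFP replicate 2 (0.0600). Insig1, which holds back the pathway's activator SREBP, was lower (-0.24 ± 0.06 (SE), adjusted p = 0.01597) but not without GFP replicate 1 (0.0537) or 2 (0.0534).

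Of 23 imprinted genes 7 were lower and 2 higher, where 7.82% of all genes were higher and 10.3% lower, and 4 of the 9 calls held throughout. Without SPOC replicates 4 and 5, 5 of 24 were lower and 2 higher. In untreated SPOC cells 4 of the 23 were lower and 1 higher, where 5.77% and 5.79% of all genes were. None of the 23 passed the interaction test against untreated cells. Rian, a non-coding RNA of the Dlk1-Dio3 cluster, was at 207, 184, 203 and 204 CPM in the 4 GFP libraries and 153, 155, 184, 149 and 149.9 CPM in the 5 SPOC libraries (-0.33 ± 0.06 (SE), adjusted p = 0.00337), and it was lower in untreated SPOC cells as well (-0.56). H19 ranged from 59.3 to 72.6 CPM in the GFP and 83.5 to 212 CPM in the SPOC libraries (1.06 ± 0.28 (SE), adjusted p = 0.0379). Its call was lost without SPOC replicate 1 (0.0648) or 2 (0.0712) or any 1 of the GFP replicates (0.0781 to 0.0975). Sgce was lower (-0.92 ± 0.22 (SE), adjusted p = 0.0159), not without GFP replicate 1 (0.0504).

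Genes of the hypoxia response, a list added after the values had been seen, were lower in 7 of 31 cases and higher in none (median -0.61), where 10.3% of all genes were lower, with 1 of the 7 calls held throughout. The median of the list per library, centred on the 9 libraries, was 0.11 to 0.56 in the GFP libraries, -0.01 to 0.09 in SPOC replicates 1 to 3, and -0.64 and -0.57 in SPOC replicates 4 and 5. Bnip3, a mitophagy receptor, was at 160.1, 127, 132 and 88.5 CPM in the 4 GFP libraries and 84.7, 69.7, 71.9, 14.5 and 15.3 CPM in the 5 SPOC libraries and did not pass (-1.30 ± 0.57 (SE), adjusted p = 0.168), nor did the stress gene Ndrg1 (-1.37 ± 0.43 (SE), adjusted p = 0.0669) or the lactate dehydrogenase gene Ldha (-0.58 ± 0.23 (SE), adjusted p = 0.132). Replicates 4 and 5 held the lowest Bnip3 values. The glucose transporter gene Slc2a1 was lower (-0.62 ± 0.16 (SE), adjusted p = 0.0329), not without SPOC replicate 3 or 5 or GFP replicate 1, 2 or 3 (adjusted p 0.0575 to 0.0924). Ddit4, a stress inhibitor of mTORC1, was lower (-1.08 ± 0.27 (SE), adjusted p = 0.0307), not without SPOC replicate 3 or 4 or GFP replicate 1, 2 or 3 (0.0533 to 0.0895). Without replicates 4 and 5, 9 of 31 were lower. The difference in X-linked BL6 share was -8.09 points without these libraries, as large as with them.

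The other lists are given by their counts, to be read beside 7.82% higher and 10.3% lower of all genes. In the heat shock list 5 of 13 genes were higher and 2 lower, 3 of them throughout, and without SPOC replicates 4 and 5 there were 3 higher and none lower. In untreated SPOC cells 7 heat shock genes were higher and 1 lower, where 5.79% and 5.77% of all genes were. None of them passed the interaction test against untreated cells. Of 12 MAP kinase feedback genes 2 were higher and 3 lower (2 throughout), and of 16 Wnt targets 3 were higher and 2 lower (1 throughout). Untreated, 5 Wnt targets were higher in the SPOC line and none lower, and the interaction test called 2 lower and none higher. Targets of the stress factor ATF4 were lower in 5 of 23 cases (2 throughout). Untreated, 9 ATF4 targets were lower in the SPOC line and none higher, and the interaction test called 2 higher and 1 lower. Of 8 DNA methylation enzymes 2 were higher and 2 lower, none of them throughout and none without SPOC replicates 4 and 5. Germline genes were split into 2 higher and 2 lower of 20 (3 throughout). Genes of the mesoderm and definitive endoderm were higher in 3 of 13 cases (1 throughout), and 1 of 7 neural genes was higher, Olig2, at 8.597, 7.63, 8.36 and 8.74 CPM in the 4 GFP libraries and 14.7, 13.4, 16.4, 16.2 and 15.2 CPM in the 5 SPOC libraries (0.87 ± 0.08 (SE), adjusted p = 2.13e-05), again without overlap. Trophoblast genes were higher in 2 and lower in 1 of 9 cases (2 throughout), and primitive endoderm genes higher in 1 and lower in 1 of 12 (none throughout). In untreated SPOC cells 3 mesoderm and definitive endoderm genes, 3 neural genes and 2 trophoblast genes were higher, and 1 trophoblast gene was lower. The interaction test against untreated cells called 1 neural and 1 trophoblast gene higher and none of the mesoderm and definitive endoderm list. Of 17 genes of the 2-cell-like state, which include the near-identical Zscan4 copies, 2 were lower (1 throughout). Of 8 aryl hydrocarbon receptor targets 1 was higher and 1 lower (none throughout), of 8 interferon genes 1 was lower (not throughout), and of 6 feeder genes 1 was lower (throughout).

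On autosomes, the 5 largest allelic shifts toward a lower BL6 ratio were AI662270, Spn, Tmem8b, Aarsd1 and Vwa3b, and the 5 largest toward a higher ratio Aldh3a1, Acot11, Eno2, Myo7a and Rassf4. Vwa3b had a BL6 share of 83.4, 78.97, 79.5 and 80.1% in the GFP libraries and 71.6, 69.9, 72.8, 64.9 and 60.7% in the SPOC libraries (-0.91 ± 0.15 (SE), adjusted p = 6.13e-07), and Acot11, an acyl-CoA thioesterase, of 28.9, 34.7, 36.5 and 38.7% in the GFP libraries and 53.97, 48.4, 50.5, 52.8 and 57.9% in the SPOC libraries (1.07 ± 0.15 (SE), adjusted p = 3.43e-09). Rassf4 differed by 0.88 ± 0.16 (SE), adjusted p = 0.000242. These 3 were called in every alternative tried. The other 7 had log2 ratio differences from -1.82 to 1.11 and lost their call in at least 2 alternatives, in all 7 cases on leaving out 1 library. The libraries were GFP replicate 1 for Tmem8b (adjusted p = 0.0519). They were SPOC replicates 1, 2 and 3 and GFP replicates 2 and 4 for Spn (0.0580 to 0.230) and SPOC replicates 2, 4 and 5 and GFP replicates 1 and 2 for Eno2 (0.0648 to 0.0853). For AI662270 they were SPOC replicates 1 to 4 and GFP replicates 1, 2 and 4 (0.0559 to 0.137), for Aarsd1 SPOC replicates 1, 2, 4 and 5 and GFP replicates 1, 2 and 4 (0.0645 to 0.242). For Aldh3a1 they were SPOC replicates 3, 4 and 5 and GFP replicates 1 and 3 (0.0633 to 0.298), and for Myo7a SPOC replicates 1, 3, 4 and 5 and GFP replicates 1, 2 and 3 (0.0579 to 0.218).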

How the data were processed

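RNA was measured in 27 libraries, and 9 of them (Dox+Auxin) were compared. The deposited table holds raw read counts per gene, without and with assignment to the BL6 and CAST alleles, per the file headers. Listed without roles in the submitters' processing notes are the build mm10 and the tools DESeq2 1.18.1, featureCounts, Picard 2.18.2, STAR 2.5.3a and Trim Galore 0.4.4. The sources used here do not give the annotation, the strand setting or the method of allele assignment. The table's 27 RPKM columns were not used. Of 53801 gene IDs 53706 were found in GENCODE M21 (GRCm38), the source of positions.

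Total counts were filtered with filterByExpr, scaled by TMM and tested with edgeR 4.0.16 in R 4.3.3 (robust quasi-likelihood fit; Benjamini-Hochberg adjusted p of 0.05), in the 9 libraries, and in all 27 for the interactions and the untreated and Dox contrasts. All adjusted p-values of single genes are from this tool. CPM are counts scaled to the total of each library. The F statistic and the fold change give the standard error. Allelic ratios were fitted with a term per library, for genes with at least 20 allelic counts in each. Each allelic column pair was assigned, by its values, to the 1 total never below it. Per-library measures were tested by exact two-sided permutation (scipy 1.17.1). Alternatives were DESeq2 1.42.0, its size factors, TMM from autosomal genes, no filter, other libraries in the fit, libraries left out and, for allelic results, other count minimums. Those without SPOC replicates 4 and 5 and with allelic columns under their own names were chosen after seeing the data.

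The members, lists and tests were chosen with earlier results of these data known. Named genes were Xist, Tsix, Spen, list members, the 15 rises and the 15 falls of largest size (10 falls and 5 rises for X-linked genes) that were called, averaged 1 CPM or more and separated the groups fully, with unnamed IDs, pseudogenes, Rik names and predicted genes left out, and the 5 largest allelic shifts each way on the X chromosome and on autosomes. Of the X-linked rises in allelic ratio 1 gene passed. A few genes that these rules name are not reported here. On simulated counts the test of the 9 libraries (17336 genes) made 170 calls, 12 of them false, and found 24% of the genes changed 1.25-fold, 94% of those changed 1.5-fold, 98% of those changed 2-fold and 100% of those changed 4-fold. The interaction test (18198 genes) found 4%, 70%, 92% and 100%, and 15 of its 148 calls were false. The allelic test (11844 genes) found 12%, 46%, 82% and 98%, and 7 of its 126 calls were false. The simulations drew independent libraries with the same spread in all genes, and for total counts changed only genes above a set mean count. The libraries here were less even, with a chi-square of 1.76 to 14.7 per gene between pairs of a group. These rates therefore need not hold for the data, least of all for weakly expressed genes.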

Additional observations from a re-analysis of the deposited data

Results flagged for a closer look

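Samples were set apart where the highest or lowest of a group lay far from the rest by Dixon's test, which chance alone does for about 1 in 20 groups. In untreated SPOC cells this was replicate 2 each time, with Xist at 179 CPM, an X-linked BL6 share of 39.7%, X-linked BL6 counts of 3877 CPM and an X-linked output of -0.00277. With Dox+Auxin, single SPOC libraries stood apart for Ddx3x (1399 CPM), Magt1 (147), Magea4 (1.16), Zbtb33 (37.5), Ehf (3.26), Pramel6 (28.8), Btg2 (41.0), Eda2r (111), Rian (184) and Ciz1 (8.61). Single GFP libraries stood apart for Tbl1x (318 CPM), Zbtb33 (54.0) and Hes1 (43.4).

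The difference between the lines changed with treatment by the interaction test of edgeR. It was higher with Dox+Auxin than in untreated cells for 220 genes and lower for 221. Against Dox it was higher for 641 genes and lower for 854.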

How the results depend on the processing

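Over all alternatives, results of whole comparisons stayed on the same side of the threshold, or within 1.5 times for counts, in 268 cases (72 moved, 4 lost the call, 1 reversed). Single named genes stayed in 2085 cases, lost a call in 172, gained one in 33 and reversed in 1. With all 27 libraries in the fit 2048 genes were higher. Without SPOC replicates 4 and 5 (chosen after seeing the data) 813 genes were higher, 1084 lower and 17 X-linked genes higher, the line difference against Dox was higher for 425 genes, the allelic ratio was higher for 79 genes and 0 X-linked genes, and the exact permutation p of X-linked output (-0.124) and BL6 share (-8.09 points) was 0.0571, the smallest that design allows. Against untreated cells, the DESeq2 test gave 439 genes higher, 391 lower and 4 X-linked higher. No filter gave 142 lower, and no filter, DESeq2 size factors or summing SPOC replicates 1 and 2 each gave 2 X-linked higher. Replicate numbers were not taken to pair the libraries, since only 3 of 4 correlations of deviations exceeded 0.1 (0.244, 0.186, 0.054 and 0.349 for numbers 1 to 4, with 2 of 4 GFP libraries closest to their own number). With a replicate block the interaction against untreated called 576 higher and 665 lower genes (X-linked 6 and 101), that against Dox 1135 and 1407, X-linked output was -0.123 and BL6 share -7.96 points (exact p = 0.125 each, the smallest for 4 pairs), and the Xist, Notch3, Tet2, Wtap and H19 calls were lost (adjusted p 0.0520 to 0.173). Under the own names of the allelic columns the BL6 share difference reversed to 6.09 points (exact permutation p = 0.413), under names that the totals contradict. The Tsix difference ranged from -0.0084 without GFP replicate 4 to 0.26 without GFP replicate 2. Leaving out 1 library gave X-linked output from -0.134 to -0.123, BL6 share from -8.40 to -7.88 points, 757 to 1420 genes higher, 1046 to 1857 lower, 13 to 35 X-linked higher and 155 to 209 lower. For the allelic ratio it gave 72 to 126 higher, 232 to 294 lower, and X-linked 0 to 2 and 170 to 185. The interaction against untreated gave 98 to 512 higher, 109 to 354 lower, and X-linked 0 to 7 and 33 to 143. That against Dox gave 423 to 952 higher, 587 to 968 lower, and X-linked 1 to 3 and 243 to 311. Depth limits the allelic test, as 34.13% to 35.02% of counts carry an allele.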
